A study of Mus musculus with 11 samples.

Results

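The genes described here are 42 nucleolar ribosome biogenesis genes of the mouse, chosen by name for their known roles, with earlier results of these data known. All 42 were found among the 52661 genes of the authors' deposited expression table, and all 42 were among the 23378 genes that the authors tested. In the authors' splicing table, 41 of the 42 were named (Noc2l was the exception), with 1384 events that had 10 or more reads in every library, out of 220976 such events in all. N2A (Neuro-2A) cells, which derive from a mouse neuroblastoma, were harvested 48 h after siRNA pools had been transfected. The 4 knockdown groups were Fubp1, Khsrp, Khsrp and Fubp1 together (called the double knockdown) and Rbm38, with 2 libraries each, and the control group siNT received non-targeting siRNA pools, with 3 libraries. All 5 groups shared the cell line and the transfection, and each is a transient knockdown in 1 line. FUBP1 and KHSRP are related KH-domain proteins that bind single-stranded nucleic acid, and RBM38 binds RNA through an RNA recognition motif.

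Ribosomes are built in the nucleolus. RNA polymerase I transcribes a long precursor of the ribosomal RNAs, box C/D and box H/ACA ribonucleoproteins guided by small nucleolar RNAs (snoRNAs) methylate and pseudouridylate it, and large assembly complexes fold and cut it while ribosomal proteins are added to the small and the large subunit. The genes of these machines are transcribed by RNA polymerase II, are usually abundant in growing cells and tumour lines, and include well-known targets of the MYC transcription factors. FUBP1 was named for its binding to the far upstream element of the MYC gene.

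The knockdowns were seen in the targeted genes, for which the authors' deposited table gives 1 level per group in RPKM, a read number scaled for transcript length and library size. Fubp1 stood at 27.9 RPKM after Fubp1 knockdown and 19.8 RPKM after double knockdown, against 180.1 RPKM in siNT. Khsrp stood at 8.06 RPKM after Khsrp knockdown and 6.77 RPKM after double knockdown, against 47.0 RPKM in siNT. Rbm38 stood at 4.03 RPKM after Rbm38 knockdown, against 34.5 RPKM in siNT. Khsrp was also lower after Rbm38 knockdown (authors' log2 fold change -0.70, FDR 0.0243). All 12 markers of sympathoadrenal neuroblasts were at 1 RPKM or more in siNT, while the 4 leukocyte markers summed to at most 0.16 RPKM in any group and 2 of the 3 epithelial markers, Epcam and Krt18, were listed at 0 in siNT. Tested splicing events of the nucleolar genes had medians of 210 to 514 reads per library. GEO's labels do not say whether libraries of a group came from separate cultures, so the p-values measure only the spread between these libraries, which may be technical.

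Where the nucleolar genes changed in level, they were lower than in siNT in each knockdown. At the authors' FDR under 0.05, 21 of the 42 were lower after Fubp1 knockdown, 4 after Khsrp knockdown, 23 after double knockdown and 27 after Rbm38 knockdown, and none was higher. Among all 23378 genes tested by the authors, 10.5% were lower and 12.0% higher after Fubp1 knockdown, 4.34% lower and 3.82% higher after Khsrp knockdown, 13.7% lower and 13.2% higher after double knockdown, and 7.02% lower and 7.96% higher after Rbm38 knockdown. The 42 genes are well expressed, with 10 RPKM or more in every group. Among the 7011 tested genes with that property, the shares of lower genes were 20.8% (Fubp1), 6.2% (Khsrp), 22.6% (double) and 15.2% (Rbm38) by the authors' FDR. The median of the authors' log2 fold changes over the 42 genes was -0.37 after Fubp1, -0.25 after Khsrp, -0.43 after double and -0.48 after Rbm38 knockdown, against medians of -0.11, 0.01, -0.03 and -0.06 over the 7011 genes, in the same order. In bulk RNA, fewer cells of a kind and less RNA per cell cannot be told apart, and RPKM is relative to all reads of a library. The authors' log2 fold changes of the 42 genes ranged from -0.88 to 0.16 (Fubp1), from -0.65 to 0.47 (Khsrp), from -1.16 to 0.56 (double) and from -0.85 to 0.22 (Rbm38).

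**Figure D1:**
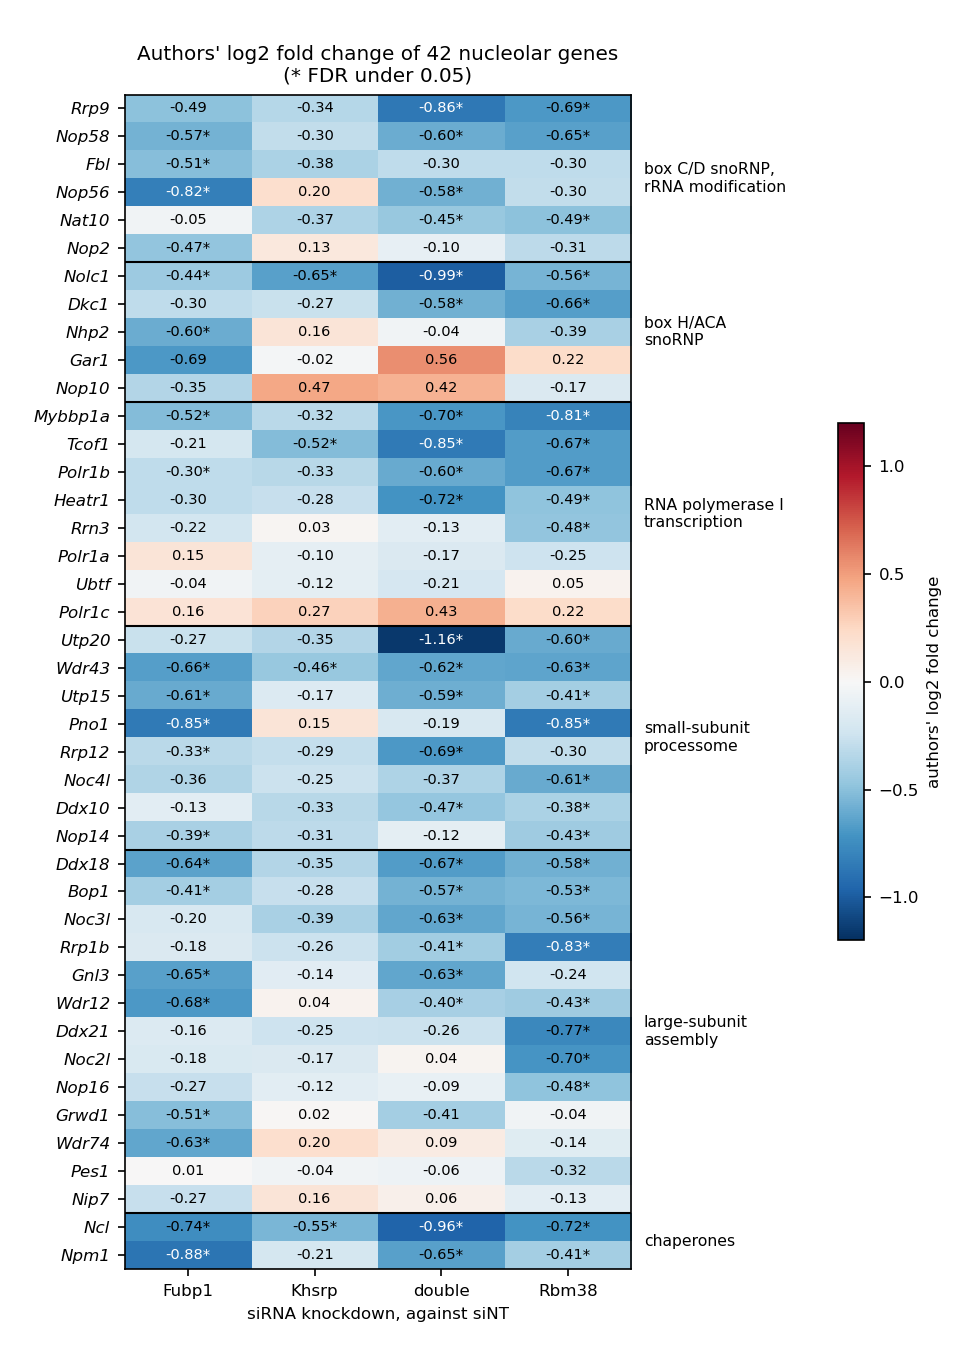
The authors' log2 fold change of each of the 42 genes (rows, by role) in each knockdown against siNT (columns), with the value printed in each cell and an asterisk at an FDR under 0.05. Most cells are blue (lower than siNT), with 21, 4, 23 and 27 asterisks in the Fubp1, Khsrp, double and Rbm38 columns, and no red cell carries an asterisk.

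All 4 comparisons share the same siNT libraries, so a high or low siNT value moves all 4 columns together. The expression table holds 1 value per group, so neither a replicate spread of a level nor a test between knockdowns could be had. By the library numbers in the sample names, both Fubp1 libraries fall in a low set with siNT A and B. All Khsrp, double and Rbm38 libraries fall in a high set with siNT C, so siNT mixes the sets. No term for the set could be fitted to these levels, and its part in the counts of lower genes was not tested. The cumulative plot of log2 fold changes shows the whole distribution for the 42 genes beside other ribosome biogenesis genes and all well-expressed genes.

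**Figure D2:**
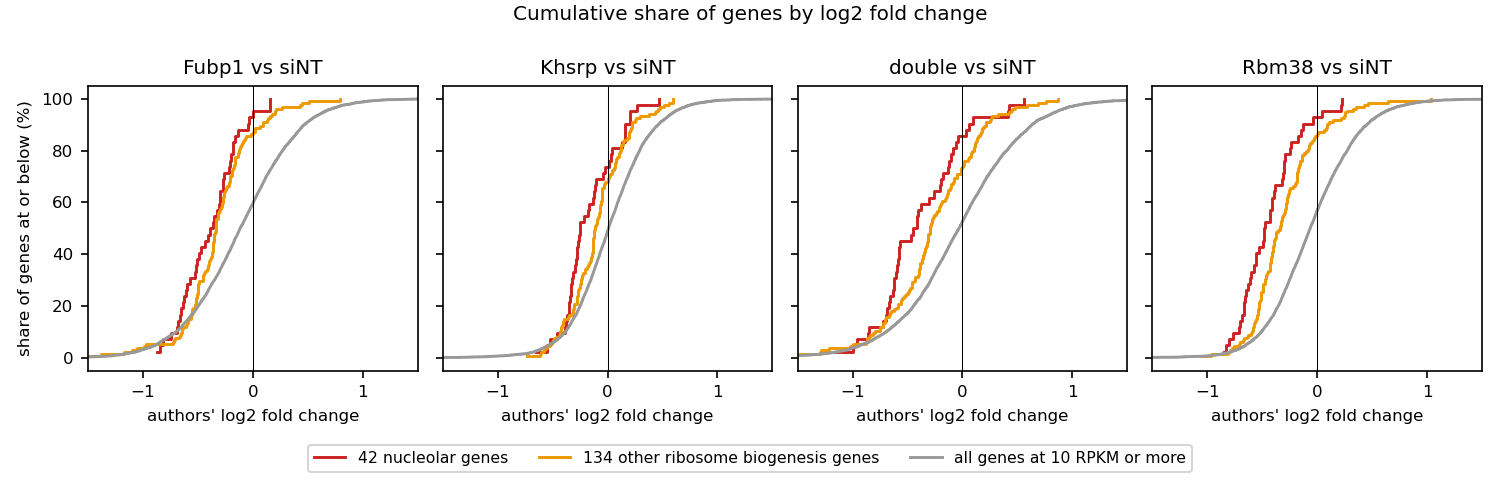
Cumulative share of genes (vertical axis, percent) at or below a given authors' log2 fold change (horizontal axis, drawn from -1.5 to 1.5) in each knockdown against siNT, for the 42 nucleolar genes (red), 134 other ribosome biogenesis genes (orange) and the 7011 tested genes at 10 RPKM or more in every group (grey). The red line lies left of the grey line over most of its length in each panel, with medians of -0.37, -0.25, -0.43 and -0.48 for Fubp1, Khsrp, double and Rbm38.

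The nucleolar chaperones Ncl and Npm1 had the highest levels. Ncl (nucleolin, ENSMUSG00000026234, chr1:86344719-86359400, minus strand, GRCm38), an RNA-binding phosphoprotein of ribosomal RNA transcription and processing, stood in the authors' deposited table at 555 RPKM after Fubp1, 493 RPKM after Khsrp, 404 RPKM after double and 442 RPKM after Rbm38 knockdown, against 853 RPKM in siNT. Its level was lowest after double knockdown, and each knockdown passed the test, with authors' log2 fold changes of -0.74 (FDR 3.38e-06) after Fubp1, -0.55 (0.00282) after Khsrp, -0.96 (4.54e-10) after double and -0.72 (1.62e-05) after Rbm38 knockdown. Npm1 (nucleophosmin, ENSMUSG00000057113, chr11:33152287-33163206, minus strand, GRCm38), a histone and ribosomal protein chaperone, was the most abundant of the 42, with 2371 RPKM after Fubp1, 3154 RPKM after Khsrp, 2339 RPKM after double and 2841 RPKM after Rbm38 knockdown, against 4114 RPKM in siNT, by the authors' values. It fell after Fubp1, double and Rbm38 knockdown, with authors' log2 fold changes of -0.88 (FDR 9.75e-09), -0.65 (2.11e-05) and -0.41 (0.0219), while after Khsrp knockdown it was -0.21 (FDR 0.415).

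Of the 6 genes of box C/D ribonucleoproteins and ribosomal RNA modification, 4 were lower after Fubp1, none after Khsrp, 4 after double and 3 after Rbm38 knockdown, by the authors' FDR. NOP56 and NOP58 are the paired scaffold proteins of the box C/D particle, and fibrillarin (FBL) is its methyltransferase. Nop56 stood at 241 RPKM after Fubp1, 489 RPKM after Khsrp, 308 RPKM after double and 365 RPKM after Rbm38 knockdown, against 441 RPKM in siNT, in the authors' deposited table. It fell after Fubp1 knockdown (authors' log2 fold change -0.82, FDR 4.59e-08) and after double knockdown (-0.58, FDR 1.45e-04), and its value after Khsrp knockdown lay above siNT (0.20, FDR 0.423). Nop58 stood at 322 RPKM after Fubp1, 310.0 RPKM after Khsrp, 273 RPKM after double and 254 RPKM after Rbm38 knockdown, against 436 RPKM in siNT, by the authors' values. Unlike its partner's, its Rbm38 value also passed (authors' log2 fold change -0.65, FDR 7.69e-05), beside Fubp1 (-0.57) and double (-0.60), though the difference between the partners was not tested. Fbl stood at 155 RPKM after Fubp1, 179 RPKM after Khsrp, 182 RPKM after double and 190.4 RPKM after Rbm38 knockdown, against 227 RPKM in siNT, and passed after Fubp1 knockdown and in no other comparison (authors' log2 fold change -0.51, FDR 0.0369). Rrp9, a protein of the U3 particle that guides early cleavage, stood at 26.8 RPKM after Fubp1, 31.1 RPKM after Khsrp, 22.1 RPKM after double and 25.02 RPKM after Rbm38 knockdown, against 37.2 RPKM in siNT, by the authors' values. It passed after double (-0.86, FDR 3.16e-04) and Rbm38 knockdown (-0.69, FDR 0.0103) on the authors' log2 scale. Nat10, an acetyltransferase for ribosomal and transfer RNA, stood at 76.2 RPKM after Fubp1, 46.6 RPKM after Khsrp, 45.2 RPKM after double and 43.97 RPKM after Rbm38 knockdown, against 74.7 RPKM in siNT, by the authors' values. Nat10 also passed after double (-0.45, FDR 0.0130) and Rbm38 knockdown (-0.49, FDR 0.0113). Nop2, a methyltransferase for large-subunit ribosomal RNA, stood at 30.2 RPKM after Fubp1, 50.2 RPKM after Khsrp, 42.6 RPKM after double and 37.9 RPKM after Rbm38 knockdown, against 43.2 RPKM in siNT, and passed after Fubp1 knockdown and in no other comparison by the authors' test (-0.47, FDR 0.00392).

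The 5 box H/ACA genes did not move as one. Nolc1 (Nopp140), a chaperone that binds these particles, was the member with the second lowest log2 fold change in the double knockdown among the 42. It stood in the authors' deposited table at 73.8 RPKM after Fubp1, 74.2 RPKM after Khsrp, 58.8 RPKM after double and 84.5 RPKM after Rbm38 knockdown, against 104.36 RPKM in siNT. Each knockdown passed, with authors' log2 fold changes of -0.44 (FDR 0.0181) after Fubp1, -0.65 (5.22e-04) after Khsrp, -0.99 (1.2e-09) after double and -0.56 (0.00264) after Rbm38 knockdown. Dkc1, the pseudouridine synthase, stood at 129 RPKM after Fubp1, 148 RPKM after Khsrp, 106 RPKM after double and 106 RPKM after Rbm38 knockdown, against 173 RPKM in siNT, and passed after double (-0.58, FDR 0.00112) and Rbm38 knockdown (-0.66, FDR 4.33e-04) by the authors' test. Nhp2, a core protein, stood at 143 RPKM after Fubp1, 249.9 RPKM after Khsrp, 215 RPKM after double and 176 RPKM after Rbm38 knockdown, against 221 RPKM in siNT, and passed after Fubp1 knockdown and in no other comparison by the authors' test (-0.60, FDR 0.00430). The other core proteins, Nop10 and Gar1, passed in no knockdown. Their authors' log2 fold changes after double knockdown lay above 0, at 0.42 for Nop10 (FDR 0.506) and 0.56 for Gar1 (FDR 0.382).

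Among the 8 genes of RNA polymerase I transcription, 2 were lower after Fubp1, 1 after Khsrp, 4 after double and 5 after Rbm38 knockdown, by the authors' FDR. Tcof1 encodes treacle, which ties polymerase I transcription to processing, and was the least abundant of the 42 in siNT. It stood in the authors' deposited table at 20.8 RPKM after Fubp1, 19.6 RPKM after Khsrp, 15 RPKM after double and 18.4 RPKM after Rbm38 knockdown, against 25.9 RPKM in siNT. It passed after Khsrp (-0.52, FDR 0.0455), double (-0.85, FDR 3.13e-05) and Rbm38 knockdown (-0.67, FDR 0.00281) on the authors' log2 scale, and not after Fubp1 knockdown (-0.21, FDR 0.491). Mybbp1a, a nucleolar protein that binds MYB and polymerase I complexes, stood at 136 RPKM after Fubp1, 119.8 RPKM after Khsrp, 93.2 RPKM after double and 89.1 RPKM after Rbm38 knockdown, against 179.9 RPKM in siNT, by the authors' values. Its level was lowest after double and Rbm38 knockdown, where it passed with authors' log2 fold changes of -0.70 after double (FDR 1.89e-05) and -0.81 after Rbm38 knockdown (FDR 1.81e-06), and it passed after Fubp1 knockdown with -0.52 (FDR 0.00253). Polr1b, the second largest subunit of the enzyme, stood at 34.5 RPKM after Fubp1, 32.7 RPKM after Khsrp, 27.7 RPKM after double and 26.1 RPKM after Rbm38 knockdown, against 42.7 RPKM in siNT, by the authors' values. Polr1b passed after Fubp1 (-0.30, FDR 0.0401), double (-0.60, FDR 3.14e-06) and Rbm38 knockdown (-0.67, FDR 4.92e-07). Heatr1, whose product is needed for polymerase I transcription and early small-subunit assembly, stood at 31.5 RPKM after Fubp1, 28.3 RPKM after Khsrp, 20.03 RPKM after double and 26.8 RPKM after Rbm38 knockdown, against 36.2 RPKM in siNT, and passed by the authors' test after double (-0.72) and Rbm38 knockdown (-0.49). Rrn3, the initiation factor TIF-IA that recruits the enzyme, stood at 41.2 RPKM after Fubp1, 44.7 RPKM after Khsrp, 41.4 RPKM after double and 32.7 RPKM after Rbm38 knockdown, against 46.8 RPKM in siNT, and passed after Rbm38 knockdown and in no other comparison by the authors' test (-0.48, FDR 4.87e-04). The largest subunit Polr1a, the shared subunit Polr1c and the rDNA-binding factor Ubtf passed in no knockdown. Polr1c lay above siNT in each of the authors' log2 fold changes, from 0.16 after Fubp1 to 0.43 after double knockdown (FDR 0.0846).

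The small-subunit group of 8 genes had 5 lower after Fubp1, 1 after Khsrp, 5 after double and 7 after Rbm38 knockdown, by the authors' FDR. Utp20, a very large repeat protein of the processome, had the lowest log2 fold change of any of the 42 genes, in the double knockdown. It stood in the authors' deposited table at 25.9 RPKM after Fubp1, 23.1 RPKM after Khsrp, 13.9 RPKM after double and 19.2 RPKM after Rbm38 knockdown, against 30.9 RPKM in siNT. It passed after double (-1.16, FDR 4.12e-15) and Rbm38 knockdown (-0.60, FDR 2.17e-04), while the single knockdowns gave authors' log2 fold changes of -0.27 (Fubp1, FDR 0.158) and -0.35 (Khsrp, FDR 0.0916). Whether the double and the single values differ could not be tested with 1 level per group. Wdr43 (UTP5), of the subcomplex that binds the nascent precursor, stood at 56.5 RPKM after Fubp1, 59.6 RPKM after Khsrp, 55.3 RPKM after double and 54.1 RPKM after Rbm38 knockdown, against 87.7 RPKM in siNT, by the authors' values. The 4 knockdown levels lay close together, and each passed, with authors' log2 fold changes from -0.66 (Fubp1) to -0.46 (Khsrp). Utp15, of the same subcomplex, stood at 38.3 RPKM after Fubp1, 47.3 RPKM after Khsrp, 36.3 RPKM after double and 41.6 RPKM after Rbm38 knockdown, against 57.1 RPKM in siNT, and passed by the authors' test after Fubp1 (-0.61), double (-0.59) and Rbm38 knockdown (-0.41).

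Pno1, the 40S assembly factor also called DIM2, was lower in the Fubp1 and Rbm38 knockdowns. In the authors' deposited table it stood at 71.0 RPKM after Fubp1, 125 RPKM after Khsrp, 100.19 RPKM after double and 63.7 RPKM after Rbm38 knockdown, against 121 RPKM in siNT. It passed after Fubp1 (-0.85, FDR 2.56e-04) and Rbm38 knockdown (-0.85, FDR 4.26e-04), and after double knockdown its authors' log2 fold change was -0.19 (FDR 0.558). Rrp12, which takes part in export of the subunit, stood at 24.9 RPKM after Fubp1, 25.2 RPKM after Khsrp, 18.9 RPKM after double and 25.6 RPKM after Rbm38 knockdown, against 31.3 RPKM in siNT, and passed by the authors' test after Fubp1 (-0.33) and double knockdown (-0.69). Nop14 and Noc4l encode partners in the processome. Nop14 stood at 47.2 RPKM after Fubp1, 52.0 RPKM after Khsrp, 57.6 RPKM after double and 47.3 RPKM after Rbm38 knockdown, against 61.2 RPKM in siNT, and passed by the authors' test after Fubp1 (-0.39) and Rbm38 knockdown (-0.43). Noc4l stood at 23.02 RPKM after Fubp1, 26.7 RPKM after Khsrp, 23.8 RPKM after double and 20.9 RPKM after Rbm38 knockdown, against 30.4 RPKM in siNT, and passed by the authors' test after Rbm38 knockdown and in no other comparison (-0.61). Ddx10, a DEAD-box helicase, stood at 28.5 RPKM after Fubp1, 22.1 RPKM after Khsrp, 20.9 RPKM after double and 21.9 RPKM after Rbm38 knockdown, against 30.4 RPKM in siNT, and passed by the authors' test after double (-0.47) and Rbm38 knockdown (-0.38).

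**Figure D3:**
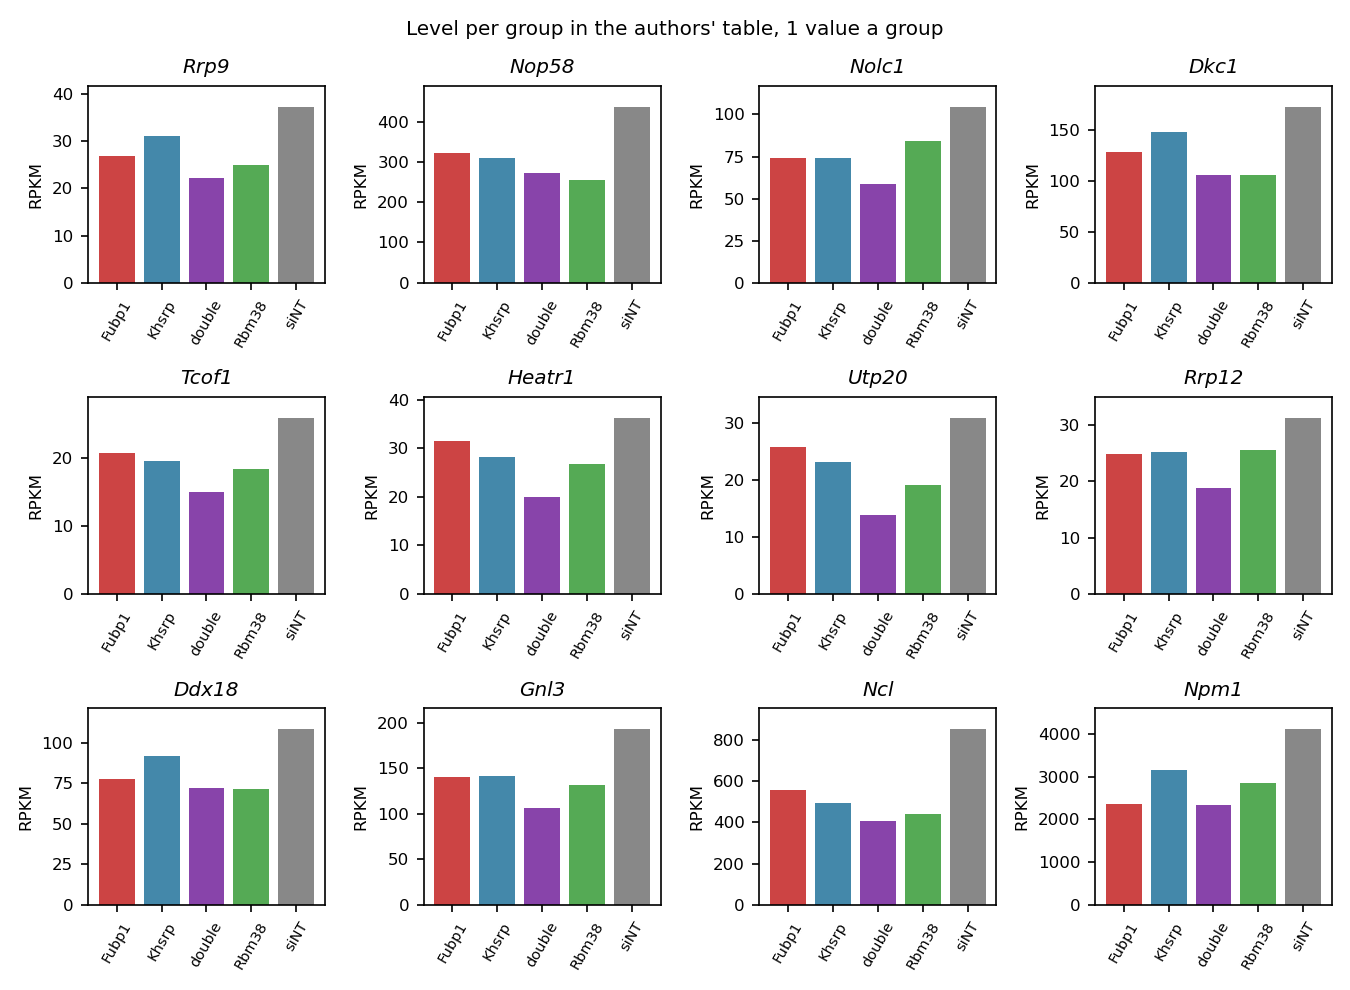
Level in RPKM (vertical axes, from 0) in each group for the 2 genes of each role group with the lowest authors' log2 fold change after double knockdown, with 1 value per group in the authors' table and so no error bar. The siNT bar is the tallest in each of the 12 panels, and in Utp20 the double knockdown stands at 13.9 RPKM against 30.9 RPKM in siNT.

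Large-subunit assembly, with 13 genes, had 6 lower after Fubp1, none after Khsrp, 6 after double and 8 after Rbm38 knockdown, by the authors' FDR. BOP1, PES1 and WDR12 form the PeBoW complex, which is needed to mature the large-subunit RNAs. Bop1 stood in the authors' deposited table at 54.6 RPKM after Fubp1, 66.7 RPKM after Khsrp, 53.6 RPKM after double and 57.5 RPKM after Rbm38 knockdown, against 76.2 RPKM in siNT. Wdr12 stood at 36.8 RPKM after Fubp1, 48.2 RPKM after Khsrp, 39.2 RPKM after double and 33.6 RPKM after Rbm38 knockdown, against 48.3 RPKM in siNT, by the authors' values. Both passed the authors' test after Fubp1 (-0.41 and -0.68), double (-0.57 and -0.40) and Rbm38 knockdown (-0.53 and -0.43, Bop1 before Wdr12 each time). Their partner Pes1 passed in none, with authors' log2 fold changes from -0.32 after Rbm38 knockdown (FDR 0.0555) to 0.01 after Fubp1 knockdown.

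Ddx18 and Ddx21 are DEAD-box RNA helicases. Ddx18 stood in the authors' deposited table at 77.2 RPKM after Fubp1, 91.8 RPKM after Khsrp, 72.2 RPKM after double and 71.6 RPKM after Rbm38 knockdown, against 108.28 RPKM in siNT, and passed after Fubp1 (-0.64), double (-0.67) and Rbm38 knockdown (-0.58). Ddx21 stood at 163 RPKM after Fubp1, 151 RPKM after Khsrp, 149 RPKM after double and 107.56 RPKM after Rbm38 knockdown, against 183 RPKM in siNT, by the authors' values. It passed after Rbm38 knockdown and in no other comparison (-0.77, FDR 5.29e-07, by the authors' test). Noc2l and Noc3l encode partners in early large-subunit particles. Noc2l stood at 101.44 RPKM after Fubp1, 102 RPKM after Khsrp, 114 RPKM after double and 71.3 RPKM after Rbm38 knockdown, against 114 RPKM in siNT, and also passed after Rbm38 knockdown and in no other comparison by the authors' test (-0.70, FDR 2.02e-05). Noc3l stood at 29.5 RPKM after Fubp1, 24.99 RPKM after Khsrp, 21.8 RPKM after double and 22.9 RPKM after Rbm38 knockdown, against 33.9 RPKM in siNT, and passed by the authors' test after double (-0.63) and Rbm38 knockdown (-0.56). Rrp1b, which also targets protein phosphatase 1 to the nucleolus, stood at 33.5 RPKM after Fubp1, 27.8 RPKM after Khsrp, 25.1 RPKM after double and 22.1 RPKM after Rbm38 knockdown, against 39.4 RPKM in siNT, by the authors' values. It passed after double (-0.41) and Rbm38 knockdown (-0.83, FDR 1.16e-08) by the authors' test.

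Gnl3 encodes nucleostemin, a GTPase of stem and tumour cell nucleoli whose introns host snoRNAs. It stood in the authors' deposited table at 141 RPKM after Fubp1, 142 RPKM after Khsrp, 107 RPKM after double and 132 RPKM after Rbm38 knockdown, against 193 RPKM in siNT, and passed after Fubp1 (-0.65, FDR 7.94e-06) and double knockdown (-0.63, FDR 1.28e-05). Its RPKM ratio and the authors' fold change stood furthest apart of the 42 genes after Khsrp and after Rbm38 knockdown, by 0.31 log2 units each. The furthest apart were Wdr12 after Fubp1 (0.3) and Nat10 after double knockdown (0.27). Grwd1, a chaperone of ribosomal protein uL3, stood at 24.6 RPKM after Fubp1, 38.6 RPKM after Khsrp, 27.9 RPKM after double and 37.7 RPKM after Rbm38 knockdown, against 36.8 RPKM in siNT, and passed after Fubp1 knockdown and in no other comparison by the authors' test (-0.51). Wdr74, a factor of large-subunit particles in the nucleus, stood at 46.2 RPKM after Fubp1, 84.8 RPKM after Khsrp, 78.8 RPKM after double and 68.7 RPKM after Rbm38 knockdown, against 72.1 RPKM in siNT, and likewise passed after Fubp1 knockdown and in no other comparison (-0.63, authors' test). Nop16 stood at 112 RPKM after Fubp1, 129 RPKM after Khsrp, 125 RPKM after double and 105 RPKM after Rbm38 knockdown, against 137 RPKM in siNT, and passed after Rbm38 knockdown and in no other comparison by the authors' test (-0.48, FDR 0.0147). The share of all tested genes that passed in at least 1 knockdown is not given here, so the next count has no background. In all, 35 of the 42 genes passed the authors' test in at least 1 knockdown. The 7 that did not were Nop10, Gar1, Polr1a, Polr1c, Ubtf, Pes1 and Nip7, a large-subunit assembly factor whose authors' log2 fold changes ran from -0.27 after Fubp1 to 0.16 after Khsrp knockdown.

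The rest of the pathway was followed through 136 other ribosome biogenesis genes in 5 lists, also chosen with earlier results known. A test in the authors' table was found for 134 of them. Of these 134, 52 were lower and 2 higher after Fubp1, 16 lower and 1 higher after Khsrp, 51 lower and 3 higher after double and 59 lower and 1 higher after Rbm38 knockdown, by the authors' FDR. The median of the authors' log2 fold changes was -0.34, -0.11, -0.29 and -0.34 in the Fubp1, Khsrp, double and Rbm38 knockdowns. Among 50 other large-subunit genes, 20, 6, 22 and 29 were lower in that order of knockdowns and none was higher. Lyar, a nucleolar zinc-finger protein, stood in the authors' deposited table at 72.4 RPKM after Fubp1, 76.4 RPKM after Khsrp, 53.8 RPKM after double and 65.1 RPKM after Rbm38 knockdown, against 115 RPKM in siNT. Mdn1 (midasin), the giant ATPase of 60S release, stood at 7.10 RPKM after double knockdown, against 18.1 RPKM in siNT, by the authors' values (log2 fold change -1.22, FDR 6.06e-12), and passed in none of the other knockdowns.

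Among 43 other small-subunit genes, 15 were lower and 1 higher after Fubp1, 8 and 0 after Khsrp, 19 and 1 after double and 20 and 1 after Rbm38 knockdown, by the authors' FDR. Ltv1, an export factor of the 40S subunit, stood in the authors' deposited table at 39.6 RPKM after Fubp1, 73.5 RPKM after Khsrp, 29.6 RPKM after double and 63.0 RPKM after Rbm38 knockdown, against 100.4 RPKM in siNT. Bms1, the GTPase of the processome, stood at 27.2 RPKM after Fubp1, 28.3 RPKM after Khsrp, 17.6 RPKM after double and 29.6 RPKM after Rbm38 knockdown, against 38.8 RPKM in siNT, by the authors' values. Both were lower in each knockdown by the authors' FDR, with log2 fold changes of -1.75 (Ltv1) and -1.51 (Bms1) after double knockdown. Of 11 other polymerase I genes, 4 were lower after Fubp1, 1 after Khsrp, 3 after double and 4 after Rbm38 knockdown, and 1 was higher after Fubp1 knockdown. The polymerase I subunit genes Cd3eap and Polr1e had authors' log2 fold changes of -0.85 and -0.56 after double knockdown. Of 9 snoRNP assembly genes, 4, 1, 3 and 4 were lower after Fubp1, Khsrp, double and Rbm38 knockdown and none higher, with Shq1 at -0.72 and Znhit6 at -0.55 on the authors' log2 scale after double knockdown. Of 21 tested genes of the exosome and RNase MRP, 9 were lower after Fubp1 and 4 after double knockdown, none was lower after Khsrp, and 1 was higher after Khsrp and 2 after double knockdown. After Rbm38 knockdown 2 were lower and none higher. Skiv2l2, the exosome helicase MTR4, stood at -1.0 and Rpp14, a subunit of RNase P and MRP, at -0.87 on the authors' log2 scale after double knockdown, and Rpp14 stood at -1.58 after Fubp1 knockdown.

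Promoter windows of 250 bases before and 50 after the start were found for 37 of the 42 genes (46 windows, RefSeq, build GRCm38.p6). The E-box CACGTG, the preferred letters of MYC with MAX, and the ETS-type string CCGGAAG were searched on both strands, and CACGTG is its own reverse complement. CACGTG occurred in 8 of the 46 windows (17.4%), against 9.1% of the 14925 windows of genes with an authors' test and 7.2% of all 32851 windows. The 8 genes with CACGTG were Grwd1, Mybbp1a, Nop2, Pes1, Pno1, Rrn3, Utp20 and Wdr43. CCGGAAG occurred in 14 of the 46 windows (30.4%), against 14.5% and 8.9%. The 250 bases before the start of Nop2, lower after Fubp1 knockdown, and of Rrn3, lower after Rbm38 knockdown, are printed because both hold an E-box upstream of the start. Matches to either string are in capitals, and no matches overlapped. Rrn3 is among the 13 genes counted for CCGGAAG, but its match does not lie wholly within the printed bases.
Nop2 (chr6:125131633-125131882, plus strand): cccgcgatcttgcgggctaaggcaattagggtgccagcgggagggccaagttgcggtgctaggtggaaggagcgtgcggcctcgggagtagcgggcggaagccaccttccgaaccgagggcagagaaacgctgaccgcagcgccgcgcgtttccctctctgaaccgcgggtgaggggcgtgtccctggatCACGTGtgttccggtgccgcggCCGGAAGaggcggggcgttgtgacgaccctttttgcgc
Rrn3 (chr16:13780449-13780698, plus strand): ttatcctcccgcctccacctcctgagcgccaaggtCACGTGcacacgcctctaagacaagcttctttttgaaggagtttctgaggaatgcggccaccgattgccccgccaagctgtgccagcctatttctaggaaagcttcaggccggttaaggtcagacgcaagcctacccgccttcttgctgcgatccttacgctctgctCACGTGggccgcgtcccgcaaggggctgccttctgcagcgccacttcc
A match of letters is a description of the window and not of binding. Pes1 holds an E-box and passed in no knockdown. Myc and Mycn, which encode E-box factors, were added after their values were seen. Myc stood in the authors' deposited table at 97.1 RPKM after Fubp1, 59.7 RPKM after Khsrp, 64.4 RPKM after double and 59.3 RPKM after Rbm38 knockdown, against 84.7 RPKM in siNT, and was lower after Khsrp and Rbm38 knockdown (FDR 0.0326 and 0.0174). Mycn, the neuroblastoma paralog, stood at 6.38 RPKM after Fubp1, 9.27 RPKM after Khsrp, 5.77 RPKM after double and 20.1 RPKM after Rbm38 knockdown, against 13.1 RPKM in siNT, and was lower after Fubp1 and double knockdown by the authors' test (FDR 0.00202 and 4.74e-05). Mxd4, Mxi1 and Max, of the same factor network, were looked up too. Mxd4 was at 3.44 RPKM in siNT by the authors' values. It stood at 17.7 (Fubp1), 4.97 (Khsrp), 18.1 (double) and 5.77 RPKM (Rbm38), higher in each by the authors' FDR. Mxi1 was higher after Fubp1 and double knockdown, and Max passed in no knockdown. The part of these genes in the levels of the nucleolar genes was not tested.

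Splicing of the same genes was read from the percent spliced in (PSI) of each event in each of the 11 libraries, with the reads behind it. Most of the 1384 events of the nucleolar genes were constant, with 559 below a mean PSI of 1 and 581 above 99. The other 244, in 36 genes, were 47 cassette exons, 137 retained introns, 34 alternative 3′ sites and 26 alternative 5′ sites. Calls were made by limma on the log2 odds of inclusion over all 60137 such events in the table, and needed both an adjusted p under 0.05 and a mean that differed by 10 points or more. After double knockdown, 5 of the 244 were called, 3 higher and 2 lower, which is 2.05% against 7.44% of all 60137. After Fubp1 knockdown 1 of the 244 was called, against 0.848% of all. After Khsrp and Rbm38 knockdown none of the 244 was called by limma, against 0.0366% and 0.118% of all, with 42 and 27 of the 244 (17.2% and 11.1%) at an unadjusted p under 0.05, against 10.9% and 11.2% of all. None of the 137 introns was called by limma after double knockdown, against 2.88% of 26595 introns, and 3 of the 47 cassette exons were called, against 15.9% of 20841. The median absolute difference from siNT over the 244 events after double knockdown was 1.02 points, against 2.01 points over all 60137.

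Tcof1 had the event with the most reads among those called. It is a cassette exon of 108 nt, exon 17 of 26, wholly coding, matched to chromosome 18:60827340-60827447 (minus strand, GRCm38, GENCODE vM21). Its PSI was 62.55 and 65.79 after Fubp1, 65.22 and 57.75 after Khsrp, 81.53 and 86.27 after double and 53.42 and 51.08 after Rbm38 knockdown, against 52.8, 52.93 and 49.65 in siNT. The double knockdown libraries lay above all others, and the Fubp1 and Khsrp libraries lay between them and siNT without overlap. The mean was 83.9 ± 3.4% after double knockdown (SD, n = 2) and 51.8 ± 1.9% in siNT (SD, n = 3), a difference of 32.11 points (log2 odds difference 2.27 ± 0.28 SE, limma adjusted p 1.45e-05). The single knockdowns gave 12.38 points (Fubp1, limma adjusted p 0.186) and 9.69 points (Khsrp, 0.446), which were not called. The double knockdown also lay above each single one, by 19.73 points over Fubp1 (limma adjusted p 0.00374) and by 22.42 points over Khsrp (0.00142).

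Npm1 had a called alternative 3′ site that adds 6 nt. Its PSI was 35.39 and 31.88 after Fubp1, 30.4 and 24 after Khsrp, 55.47 and 48.7 after double and 18.24 and 14.63 after Rbm38 knockdown, against 19.82, 13.58 and 15.89 in siNT. The order was the same as for the Tcof1 exon, with double highest, Fubp1 and Khsrp between, and Rbm38 overlapping siNT. The difference from siNT was 35.66 points after double (limma adjusted p 9.01e-06) and 17.20 points after Fubp1 knockdown (0.0267). The Fubp1 call was lost in the fit with a term for the library set (adjusted p 0.0614), without weights, and without either Fubp1 library, siNT B or siNT C. The event rests on 138 to 265 reads per library, against 11581 to 45869 reads for another Npm1 event, so it concerns a rare junction of an abundant transcript. Alternative sites were not compared with annotated junctions, so whether this junction is annotated is not known here.

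Ddx10 had a pair of neighbouring exons that were skipped more often after double knockdown. They are exons 11 and 12 of 18, of 88 and 89 nt, both wholly coding and together 177 nt, a multiple of 3. Their sequences are printed because they are the exons included less often (RNA strand as DNA letters, GENCODE vM21). Capitals mark the exon, and the 20 lower-case bases on each side belong to the neighbouring exons.
Ddx10 exon 11 (chr9:53209689-53209776, minus strand, GRCm38): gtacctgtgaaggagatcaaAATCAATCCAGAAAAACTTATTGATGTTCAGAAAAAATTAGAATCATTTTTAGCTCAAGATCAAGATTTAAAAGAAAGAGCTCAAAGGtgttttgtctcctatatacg
Ddx10 exon 12 (chr9:53207466-53207554, minus strand, GRCm38): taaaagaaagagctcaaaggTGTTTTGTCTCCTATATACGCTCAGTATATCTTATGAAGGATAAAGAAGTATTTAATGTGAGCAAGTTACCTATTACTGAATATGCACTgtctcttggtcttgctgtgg
Both exons are rich in A and T, with 27.3% and 31.5% G and C. The PSI of exon 11 was 94.72 and 98.03 after Fubp1, 97.5 and 94.27 after Khsrp, 71.97 and 76.24 after double and 100 and 100 after Rbm38 knockdown, against 100, 99.32 and 100 in siNT. That of exon 12 was 96.55 and 98.17 after Fubp1, 97.89 and 95.72 after Khsrp, 77.12 and 75.67 after double and 97.29 and 100 after Rbm38 knockdown, against 100, 99.58 and 100 in siNT. The double knockdown lay below all other libraries for both exons. The differences from siNT were -25.67 and -23.46 points (limma adjusted p 2.12e-04 and 1.27e-04), and those from the Fubp1 knockdown -22.27 and -20.96 points (0.00241 and 6.44e-04). The double knockdown libraries held 35.2 to 55.8 corrected reads that skip one of the exons. The exons are neighbours in 1 transcript and were not taken as independent events. The same gene was lower in level after double knockdown, at 20.9 RPKM against 30.4 RPKM in siNT by the authors' values.

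Utp20, the gene with the lowest fold change, also had a called event. An alternative 5′ site that adds 347 nt had a PSI of 0.57 and 0 after Fubp1, 2.19 and 0 after Khsrp, 13.22 and 11.76 after double and 4.37 and 0 after Rbm38 knockdown, against 1.5, 0 and 2.54 in siNT. The double knockdown libraries stood above all others, by 11.14 points over siNT (limma adjusted p 0.0033). The call was lost without weights (adjusted p 0.096) and with a term for the library set (0.0822). It rests on 10 and 6 reads for the longer form of 72 and 54 reads in all in the double knockdown libraries, against 3, 0 and 4 of 213, 219 and 168 in siNT. The other knockdowns held 1 and 0 of 188 and 142 (Fubp1), 3 and 0 of 146 and 113 (Khsrp) and 6 and 0 of 146 and 122 (Rbm38). Rbm38 A thus held as many longer-form reads as double B, among more reads in all.

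The transcription factor gene Ubtf carries the best-known splice variant of the 42 genes. Its 111-nt exon, exon 7 of 20 and wholly coding, separates the long form UBF1 from the shorter UBF2, which lacks part of an HMG box and is a weak activator of polymerase I. It is shown because the authors' deposited calls mark it in all 4 knockdowns, and it was chosen after its values were seen. Those calls also mark an alternative 5′ site of Nop56 that adds 30 nt in all 4 knockdowns, which is not shown. Capitals mark the exon, with 20 bases of each neighbour.
Ubtf exon 7 (chr11:102310926-102311036, minus strand, GRCm38): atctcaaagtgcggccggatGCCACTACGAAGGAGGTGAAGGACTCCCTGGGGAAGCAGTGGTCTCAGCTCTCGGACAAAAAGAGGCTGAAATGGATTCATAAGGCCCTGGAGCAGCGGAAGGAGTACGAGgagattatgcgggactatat
Its PSI was 48.88 and 51.35 after Fubp1, 44.41 and 49.78 after Khsrp, 53.25 and 58.58 after double and 35.66 and 34.53 after Rbm38 knockdown, against 45.21, 45.89 and 44.73 in siNT. Double and Fubp1 libraries lay above siNT, Rbm38 libraries lay below, and Khsrp libraries straddled it. The differences from siNT were 10.64 points after double (limma adjusted p 0.0911) and -10.18 points after Rbm38 knockdown (0.353), and neither was called. This exon had 1007 to 2920 reads in each library.

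**Figure D4:**
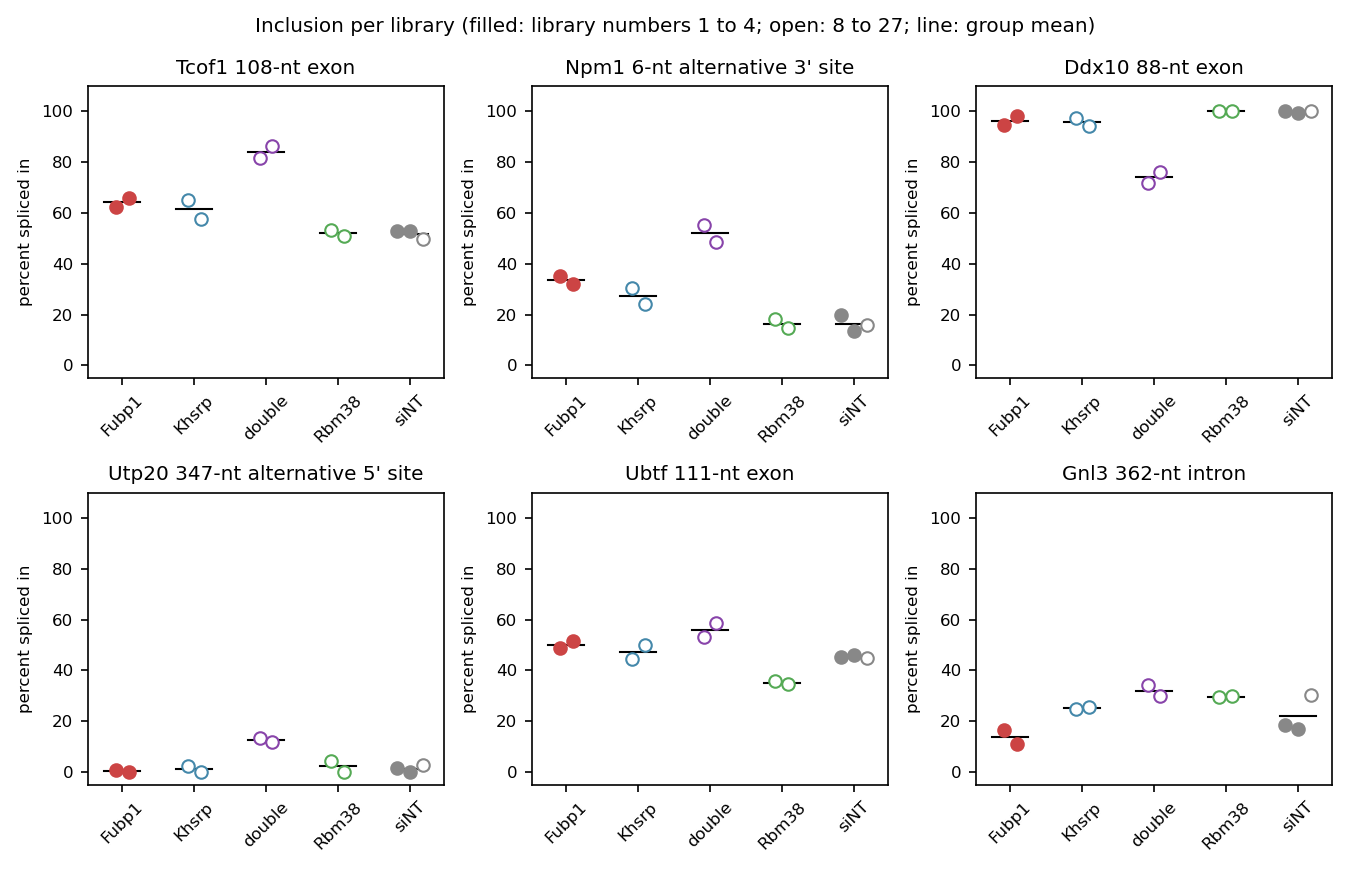
Percent spliced in (vertical axes) in each library for the called events of Tcof1, Npm1, Ddx10 (1 of its 2 exons) and Utp20, and for the Ubtf exon and a Gnl3 intron, by group, with a line at the group mean. Filled points are libraries numbered 1 to 4 in the sample names and open points those numbered 8 to 27, and the double knockdown stands apart in the first 4 panels while the Gnl3 intron follows the library number in siNT.

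Library numbers in the sample names fall into a low set (1 to 4, holding the Fubp1 pair with siNT A and B) and a high set (8 to 27, with all others and siNT C). With a term for this set, 2 of the 244 events (0.82%) were called after double knockdown, Tcof1 and Npm1, against 4.02% of all, and the Utp20 site and both Ddx10 exons were not, with limma adjusted p of 0.0822, 0.0625 and 0.0662 for Utp20 and the Ddx10 exons 11 and 12. Without siNT C, the 1 control library of the high set, 8 (3.28%) were called after double knockdown, against 7.58% of all. Double against Fubp1 compares the high with the low set. In that comparison 7 of the 244 were called, against 4.15% of all, and none of the 244 was called by limma with the set term (20 at an unadjusted p under 0.05), against 0.135% of all. The 7 were the 5 events called after double knockdown against siNT, an alternative 3′ site of Nop58 and an intron of Gnl3. The Gnl3 intron, of 362 nt and host to Snord69 (chromosome 14:31014228-31014589), had a PSI of 16.57 and 11.08 after Fubp1, 24.9 and 25.61 after Khsrp, 34.19 and 29.93 after double and 29.39 and 29.76 after Rbm38 knockdown, against 18.4, 16.96 and 30.41 in siNT. The Nop58 site, of 68 nt, had a PSI of 88.66 and 94.41 after Fubp1, 71.16 and 73.55 after Khsrp, 70.54 and 63.48 after double and 67.29 and 82.04 after Rbm38 knockdown, against 91.52, 88.53 and 67.74 in siNT. In both events, which are described here because their values had been seen to follow the library numbers, siNT C lay with the high set and siNT A and B with the Fubp1 libraries. Against Fubp1, 3 of the 244 were called without either Fubp1 library or without double A, against 2.04% to 2.35% of all, and 4 without double B, against 2.82% of all. Double against Khsrp, within the high set, had 5 of the 244 called, against 4.89% of all, and they were the Tcof1, Npm1, Utp20 and both Ddx10 events. Without double A, Khsrp A or Khsrp B that count was 3, against 2.31% to 3.37% of all. The difference of the double knockdown from the sum of the single effects was called in none of the 244 by limma (20 at an unadjusted p under 0.05, against 10.7% of all), against 0.176% of all.

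Introns of the nucleolar genes that host snoRNAs were read separately, as they must be spliced for the snoRNA to be released. GENCODE places 1 to 5 snoRNAs inside each of Dkc1, Gnl3, Ncl, Nop56, Nop58 and Wdr43, and 5 of the tested introns hold one. Of these 5, 1 of Nop56 is described here and 1 of Gnl3 above, and the others are not shown. The Nop56 intron of 343 nt, chosen after its values were seen, had the highest PSI of the 4 Nop56 introns tested, at 29.61 and 23.74% after Fubp1, 20.18 and 20.52% after Khsrp, 30.61 and 27.13% after double and 25.23 and 24.38% after Rbm38 knockdown, against 30.16, 28.73 and 30.2% in siNT. Khsrp libraries stood lowest and did not overlap siNT, with a limma adjusted p of 0.290. Over all 137 introns, the median PSI per library lay between 1.63 and 2.56, against 1.9 to 2.95 over all 26595 introns. The authors' deposited calls, made by an unstated criterion and given once for all sites of an alternative site group, marked 9 of the 244 events after Fubp1, 18 after Khsrp, 23 after double and 10 after Rbm38 knockdown. In those deposited calls, 4.69%, 2.36%, 13.2% and 2.53% of all 60137 events were marked, in the same order. Among the 18 marked after Khsrp knockdown were the 4 tested introns of Nop56, each with a lower mean than in siNT.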

How the data were processed

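PolyA-selected, stranded RNA-seq of 11 N2A libraries was read from a gene table and an event table in the layout of vast-tools. The gene table holds 1 RPKM value per group by the authors and, for each knockdown against siNT, their log2 fold change with its p-value and FDR. Per the submitters' processing notes the tools include Salmon 0.14.1 and edgeR, with mouse build mm10. These values were used as they stand, since levels per library were not used here. The event table holds the authors' percent spliced in with corrected inclusion and exclusion reads for each library. A further deposited table has a PSI score per group, which was not used, and the authors' call for each knockdown. The event coordinates name no build, so printed coordinates come from a match to GENCODE vM21 (GRCm38). Both Fubp1 libraries carry the letter A in their titles, so A and B were taken from the descriptions.

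Events with 10 or more reads in every library and a mean PSI from 1 to 99 were fitted with limma 3.58.1 (R 4.3.3) on log2((inclusion + 0.5)/(exclusion + 0.5)), 1 mean per group over all 11 libraries, with weights from the binomial variance plus a library variance and Benjamini-Hochberg adjustment over 60137 events. The code was tested on simulated data. By rule, the text names genes called in at least 1 knockdown, events called against siNT, and for each pathway list the 2 called genes with the largest absolute log2 fold change after double knockdown. The members, lists and tests were chosen with earlier results of these data known. Alternatives were other weights, filters and thresholds, a library set term, a replicate block and leaving out each library.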

Additional observations from a re-analysis of the deposited data

How the results depend on the processing

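Expression counts rest on the authors' test, and no library set term could be fitted to them. At an FDR under 0.01, 13 genes were lower after Fubp1 knockdown, against 21 at 0.05. With RPKM of 1 or more as the set of genes, 7 were lower after Khsrp knockdown, against 4. Shares of all genes under these settings are not given here. For single genes, 38 of the alternatives lost a call and none reversed a direction. For the splicing counts, percentages in brackets are the shares of all events called in the same fit. Among splicing events after Fubp1 knockdown, 0 were called without weights (0.0565%), 2 with binomial weights (1.16%) and 0 with the library set term (0.654%). With a siNT library left out, 0 to 1 were called (0.574% to 0.67%), against 1 (0.848%) in the main fit. After double knockdown, 4 were called without weights (6.37%) and 2 with the set term (4.02%), against 5 (7.44%). With a siNT library left out, 5 to 8 were called (6.64% to 7.58%), the 8 without siNT C. After Rbm38 knockdown, 1 was called with binomial weights (0.358%), against 0 (0.118%). For double against Fubp1, 1 was called without weights (1.18%) and 0 with the set term (0.135%), against 7 (4.15%). The set term was chosen after seeing the data. With a siNT library left out, 7 to 8 were called (4.13% to 4.43%). For double against Khsrp, 2 were called without weights and 3 to 5 with a library left out, against 5. The cause was not tested. Correlations of deviations between groups, by replicate letter, ran from -0.062 to 0.058. Read noise enters each deviation, so they cannot exclude pairing. In each group the median PSI over all introns was higher in A (2.44 to 2.93) than in B (1.9 to 2.45). With a replicate block the counts were 1 (Fubp1), 0 (Khsrp), 7 (double), 0 (Rbm38), 8 (double against Fubp1) and 5 (double against Khsrp). In that order the shares of all events were 0.654%, 0.17%, 7.28%, 0.289%, 4.43% and 5.21%. Letter C holds siNT C alone, so the block fit in effect leaves that library out. With 1 level per group, precision of the levels is unknown, and 210 to 514 reads per event limit the splicing values.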

Other observations

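Pno1 and Ncl had splicing values that belong in no comparison above, and both were chosen after their values were seen. The 118-nt exon of Pno1, the 40S assembly factor, had a PSI of 99.25 and 99.55 after Fubp1, 99.77 and 99.73 after Khsrp, 94.32 and 96.05 after double and 100 and 99.67 after Rbm38 knockdown, against 100, 99.68 and 99.91 in siNT. Its difference after double knockdown, -4.68 points, had a limma adjusted p of 6.66e-05 but was under the 10 points that a call needed. An alternative 5′ site of Ncl that adds 215 nt had a PSI of 2.89 and 2.58 after Fubp1, 7.51 and 8.06 after Khsrp, 6.97 and 9.27 after double and 10.53 and 7.05 after Rbm38 knockdown, against 2.5, 2.7 and 8.29 in siNT. Its siNT C value lay with the libraries numbered 8 to 27, and its siNT A and B values with those numbered 1 to 4.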
